A study of Mus musculus with 6 samples.

Results

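Frame-shifting single cassette exons are internal exons that are spliced into some transcripts of a gene and left out of others, and whose length is not a multiple of 3. They were taken from catalogues of splicing events that the authors deposited for 6 libraries of mouse nucleus accumbens, a ventral striatal region that takes part in reward and motivation. A region was counted when a catalogue listed an exon as a single inclusion event, its length was from 31 to 300 bases, and that length left a remainder of 1 or 2 on division by 3. Regions were the same in different libraries when the gene, chromosome, strand and all splice positions of the event were the same. By this rule 3799 of 8967 single cassette regions (42.4%) were members. Another 3982 regions of the same lengths were multiples of 3 and are called frame-preserving here, and 1186 lay outside the length limits.

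The mice were of the C57BL/6N strain, with no other allele named, and both groups went through conditioned place preference training, a procedure in which an animal learns to link a compartment with a drug. Saline mice were injected with saline (3 libraries, replicates 1, 2 and 3) and morphine mice with morphine, an agonist of the mu opioid receptor (3 libraries, replicates 4, 5 and 6); the labels used here name no dose, time or age. The design text counts 6 mice in each group and does not say which mice gave which library, so the p-values below measure the spread between libraries, which may be partly technical. A catalogue entry says that an event was recorded in the transcripts assembled from a library. It gives no level, the read depth is unknown, and an event that is not listed was not recorded, which does not show that the transcript was absent.

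Within coding sequence, an internal exon whose length is not a multiple of 3 changes the reading frame of everything downstream when it is skipped or included. The new frame usually meets a stop codon soon, and when that stop lies well upstream of the last exon junction the messenger is commonly degraded by nonsense-mediated decay (NMD). Many splicing regulators use such exons, often called poison exons when their inclusion brings the stop, to lower their own messenger. Near the start or the end of a coding sequence, or in an untranslated region (UTR), such an exon can instead change a terminus or a regulatory sequence without this loss.

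The following exons show how the shift looks in sequence. All sequences are 5′ to 3′ on the strand of the gene and were read from the GENCODE M21 transcripts of build GRCm38. Clk4 and Clk1 encode related kinases that phosphorylate serine and arginine rich splicing factors. Each has a member exon of 91 bases at nearly the same place in the protein, and 85 of the 91 bases (93.4%) are the same. In these lines the capitals mark the bases that differ.
Clk4 exon, chr11:51273078-51273168, plus strand: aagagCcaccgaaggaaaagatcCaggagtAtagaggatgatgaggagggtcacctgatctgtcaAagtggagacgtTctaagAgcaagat
Clk1 exon, chr1:58420121-58420211, minus strand: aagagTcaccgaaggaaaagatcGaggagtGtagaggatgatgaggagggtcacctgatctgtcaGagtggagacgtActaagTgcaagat
The Clk4 region was listed in all 6 libraries, and the Clk1 region in saline replicate 3 alone. Without this exon Clk4 is read for 134 of its 481 codons and Clk1 for 135 of 483, and in both the new stop lies 809 bases before the last exon junction.

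The next lines show the last 15 bases before a skipped exon joined to the bases after it, as far as the new stop codon, which is in capitals. They were chosen to show a stop far before the last junction and a stop in the last exon.
Clk4, skipping the exon above: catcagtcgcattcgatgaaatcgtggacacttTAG
Oprl1, skipping chr2:181716502-181716535, plus strand: gtatgtcatcctcaggcacaccaagaTGA
Ptbp1, skipping chr10:79862014-79862047, plus strand: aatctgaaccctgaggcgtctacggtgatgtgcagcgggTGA
Kcnj3, skipping chr2:55446826-55447042, plus strand: tgcaagctgctcaaagaaTGA
Kat7, skipping chr11:95276443-95276549, minus strand: agatctccatcaaaggacctgatagaTGA
The skipped exons of Oprl1 and Ptbp1 are both 34 bases long.
Oprl1 exon: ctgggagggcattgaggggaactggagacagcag
Ptbp1 exon: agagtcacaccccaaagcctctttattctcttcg
The stops of Clk4, Oprl1 and Ptbp1 lie more than 50 bases before the last junction, at 809, 342 and 361 bases. Those of Kcnj3 and Kat7 lie in the last exon, after 235 of 501 and 548 of 613 codons. All were read from the start codon of a transcript that includes the exon. Skipping is annotated for each of these exons. The annotated transcripts that skip them, which may start elsewhere, were not read.

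The opposite case is an exon that brings its own stop. Rbm39, a splicing factor that is part of spliceosomal complexes, has a 73-base exon at chr2:156178880-156178952 on the minus strand that the annotation places in NMD transcripts alone. The exon is shown as far as its stop codon, in capitals.
Rbm39 exon to its stop: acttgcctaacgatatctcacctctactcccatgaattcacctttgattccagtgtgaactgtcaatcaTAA
With it, 40 codons are read before the stop where the annotated protein has 530. It was listed in saline replicates 1 and 2 and in no other library.

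The 3799 regions held 3579 distinct exons in 2716 genes, of which 2699 are protein-coding. A single member was found in 1976 genes, 740 genes had 2 or more, and 19 genes had at least 5. The most were 8 regions each in Traf3ip2, an adaptor of interleukin-17 signalling, over 4 exons, and in the zinc finger gene Zfp788 over 3 exons; both were picked after their values were seen. The median member was 104 bases long (quartiles 74 and 145), and the median introns before and after it were 2467 and 2459 bases. A remainder of 1 was left by 1976 members (52.0%) and a remainder of 2 by 1823.

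Frame-shifting exons made up 48.8% of the 7781 single cassette regions of 31 to 300 bases, and the share varied with length. It was 38.6% at 31 to 60 bases, 48.5% at 61 to 90 and 51.3% at 91 to 120, and reached 54.2% at 181 to 210. At the lower limit, 23 regions of 31 bases lay just inside, among them Arrb2, which encodes beta-arrestin 2, an adaptor that uncouples opioid and other G protein coupled receptors. Of these 3 were listed in all 6 libraries and 9 in 1. Just outside, 11 regions had 29 bases, including the calcium-activated potassium channel gene Kcnma1, and 2 of them were in all 6 libraries. At the upper limit the members of 298 bases were in Fam126a, Nwd1 and Trim46, and the next region outside had 301 bases and lay in Oprk1, which encodes the kappa opioid receptor.

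Members lay less often in coding sequence than frame-preserving exons of the same libraries. Of all 3799 members, 1870 (49.2%) were wholly coding in an annotated protein-coding transcript, 344 (9.06%) held a start or a stop codon, and 629 (16.6%) lay in a UTR. A further 167 (4.40%) occurred in annotated NMD transcripts alone, 177 (4.66%) in annotated non-coding transcripts alone, and 612 (16.1%) matched no annotated exon. Among the 3982 frame-preserving regions 2825 (70.9%) were wholly coding, 181 (4.55%) held a start or stop codon, 340 (8.54%) lay in a UTR and 438 (11.0%) were not annotated.

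Within libraries, the share of members in coding sequence, counting start and stop codon exons, was 59.5, 59.0 and 56.5% in the saline libraries and 59.6, 60.2 and 59.1% in the morphine libraries. For frame-preserving exons it was 81.8, 82.6 and 79.7% in saline and 82.4, 80.6 and 82.6% in morphine. The ranges of the sets did not overlap. The mean difference was -22.6 ± 1.17 percentage points (SD, n = 6 libraries), lower in 6 of 6 (exact two-sided sign-flip permutation test, p = 0.031, the smallest that 6 libraries can give; 0.0375 after Benjamini-Hochberg adjustment over the 12 contrasts computed). The UTR share was 21.3 ± 0.737% of members and 7.85 ± 0.176% of frame-preserving exons, higher in 6 of 6 (exact sign-flip p = 0.031, adjusted 0.0375). Unannotated exons took 11.0 ± 1.03% of members and 6.59 ± 0.622% of frame-preserving exons, again higher in 6 of 6 (exact sign-flip p = 0.031, adjusted 0.0375). Libraries list many of the same regions, so these p-values measure the agreement between libraries only.

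Members were also listed in fewer libraries. Of the 3799, 581 (15.3%) were listed in all 6 libraries and 1673 (44.0%) in 1 alone, with 611, 360, 275 and 299 in 2, 3, 4 and 5 libraries. Among frame-preserving exons 31.5% were in all 6 and 31.8% in 1, and over all 8967 single cassette regions 23.2% were in all 6. The gap was widest for wholly coding exons, where 13.5% of members and 37.4% of frame-preserving exons were in all 6 libraries. In UTRs the shares were 24.3 and 22.1%, and for exons with a start or stop codon 32.0 and 33.1%.

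**Figure D1:**
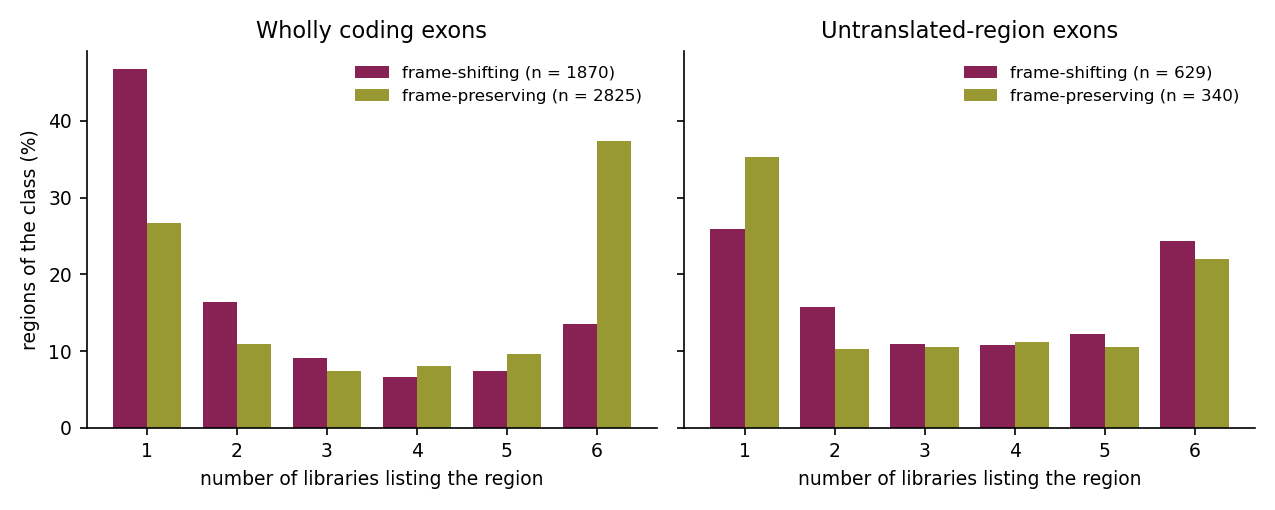
Percent of regions (vertical axis) listed in 1 to 6 libraries (horizontal axis), for wholly coding exons (left) and exons in untranslated regions (right); dark bars are frame-shifting and light bars frame-preserving regions. Coding members are most often listed in 1 library (46.8%), coding frame-preserving exons in all 6 (37.4%), and the UTR bars for all 6 libraries are close to each other (24.3 and 22.1%).

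Seen from each library, the coding members found in all 6 catalogues were 32.9, 31.3 and 30.7% of the coding members of the saline libraries and 32.1, 31.5 and 34.9% of those of the morphine libraries. For frame-preserving coding exons the shares were 60.4, 59.3 and 57.2% and 61.5, 60.1 and 60.3%. The regions found in all 6 are the same in every library, so these shares restate the pooled counts with each library's own total. Contrasts of such shares were among the 12 computed, but for this reason they carry no test. The mean shares over the 6 libraries were 42.9% of UTR members against 41.8% of frame-preserving UTR exons, and 54.5 against 58.7% for exons with a start or stop codon. For exons of NMD transcripts they were 29.5 against 42.4%, for those of non-coding transcripts 18.2 against 35.5%, and for unannotated exons 16.4 against 20.1%. By these means members were the less widely listed in each class but UTR exons. For start and stop codon exons this held in 5 of 6 libraries, and start codon exons alone went the other way, as given next. Whether the gap differs between classes was not tested.

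Within the group of exons that held a start or stop codon, 245 members held a start codon and 98 a stop codon. The start codon exons were in all 6 libraries in 68 cases (27.8%) and the stop codon exons in 42 cases (42.9%). Frame-preserving exons with a start codon were in all 6 in 26 of 113 cases and those with a stop codon in 34 of 68. Unannotated members were the least shared, with 4.90% in all 6 libraries and 63.6% in 1.

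When coding members were removed from a transcript that includes them, a premature stop was met in nearly all assessed cases. The exon and both neighbouring splice sites matched a complete protein-coding transcript for 1649 of the 1870. Of these, 1529 (92.7%) met a stop before the annotated one, at a median of 36.8% of the codons of the full protein and a median of 10 codons past the new junction. In 1203 (73.0%) that stop lay more than 50 bases before the last exon junction. In 326 (19.8%) it lay closer or in the last exon, in 117 the new frame ran past the place of the annotated stop, and in 3 no stop was met. Among 2398 assessed frame-preserving coding exons, skipping brought a premature stop in 4 (0.167%). Each form was read from the start codon of the transcript with the longest coding sequence that includes the exon. Exons that begin with that start codon, such as one of Clk4, were counted too. Skipping was annotated for 532 of the 1203 (44.2%), and annotated transcripts that skip the exon were not read. These outcomes follow from exon length and annotated sequence and were not measured in protein or in RNA decay.

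Where the stop fell went with how many libraries listed the region. Of the 1203 members with a stop more than 50 bases before the last junction, 117 (9.73%) were in all 6 libraries and 607 (50.5%) in 1. Of the 326 with a premature stop nearer to the end, 65 (19.9%) were in all 6, and of the 117 whose frame ran past the annotated stop, 39 (33.3%). Frame-preserving coding exons that kept the annotated stop were in all 6 in 938 of 2394 cases (39.2%). These are pooled counts over the series. A contrast by library of the first group with the other assessed coding members was among the 12 computed. It carries no test, since the regions found in all 6 are the same in every library.

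The annotation of the skipped form moved with the same count. Among assessed coding members listed in 1, 2, 3, 4, 5 and 6 libraries (762, 278, 150, 112, 125 and 222 regions), the share with a stop more than 50 bases before the last junction was 79.7, 77.0, 68.7, 69.6, 67.2 and 52.7%. Along the same order, the share whose skipping is annotated was 32.7, 45.7, 63.3, 66.1, 72.8 and 89.2%. Skipping was annotated for 977 of 1870 coding members (52.2%) and for 2206 of 2825 frame-preserving coding exons (78.1%). Where it was annotated, 23.3% of coding members and 45.5% of frame-preserving exons were in all 6 libraries, and where it was not, 2.80 and 8.40%. How far use of an annotation by the assembly sets these shares was not tested. Read depth and expression of the gene are also not known here.

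**Figure D2:**
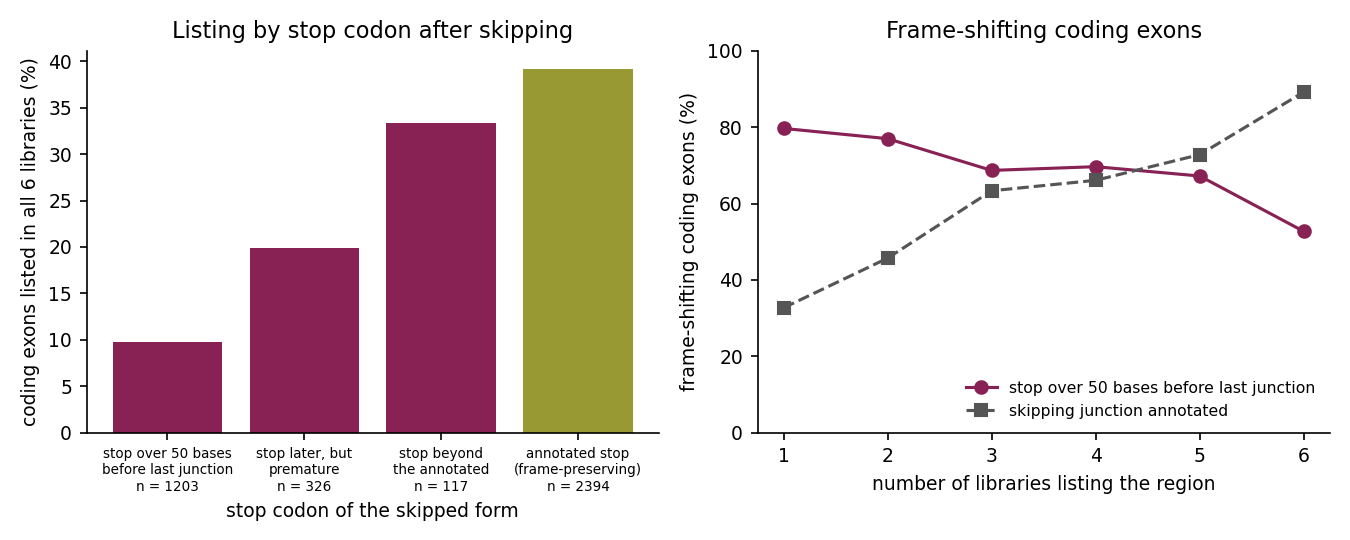
Left, percent of coding exons listed in all 6 libraries (vertical axis) by where the skipped form meets its stop (horizontal axis), dark bars frame-shifting and the light bar frame-preserving: 9.73, 19.9, 33.3 and 39.2%. Right, over assessed coding members listed in 1 to 6 libraries (112 to 762 regions at each point), the percent with a stop more than 50 bases before the last junction (circles, from 79.7 to 52.7%) and the percent whose skipping is annotated (squares, from 32.7 to 89.2%).

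Members of NMD and non-coding transcripts were read in the other direction, with the exon included. Of 344 such members 213 could be placed in a coding transcript that skips them, and inclusion brought a premature stop in 212, with 205 (96.2%) more than 50 bases before the last junction. The stop lay inside the exon itself in 156. These classes come from the annotation of the transcripts, and the length of a member shifts the frame. The premature stops of members therefore partly restate the annotation and the rule. For frame-preserving exons of these classes, 93 of 123 (75.6%) had a premature stop, all of them inside the exon, and 30 kept the annotated stop. Members of NMD transcripts were in all 6 libraries in 13.8% of cases and those of non-coding transcripts in 6.78%, against 21.2 and 14.1% of frame-preserving exons of these classes.

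The 3 lists of RNA-processing genes and the clock genes had larger frame-shifting shares than all genes together. Splicing factors known for poison exons, 46 genes, had 25 members in 18 genes, which was 56.8% of their single cassette exons against 48.8% over all genes. Of the 25, 9 (36.0%) lay in NMD or non-coding transcripts alone, against 9.06% of all members. The list was chosen for known poison exons, so this larger share partly restates that choice. In all 6 libraries 7 of the 25 were listed. Clk4 had 4 members. Its exons of 161 and 91 bases were in all 6 libraries, the exon of 67 bases in saline 2 and 3 and morphine 6, and an NMD exon of 59 bases in saline 2. The 161-base exon begins with the start codon of the transcript used, so skipping it removes that codon. What is translated from this skipped form was not determined. A 50-base coding exon of Hnrnph1, which encodes a splicing regulator that binds runs of G, was also in all 6.

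Other named genes of that list were seen in few libraries. Ptbp1 encodes a repressor of neuronal exons that is itself low in neurons, and its 34-base coding exon, whose skipping leaves 379 of 555 codons, was in morphine 4 alone. A 56-base unannotated Ptbp1 exon was in saline 2 and 3 and morphine 5 and 6. A 76-base UTR exon of Srsf11 was in morphine 6 alone. Both splice boundaries of the Clk1 exon shown above were part of other listed events in the 5 libraries that did not list the region. No member was found in Ptbp2, Srsf3, Srsf5, Srsf6, Srsf7, Tra2a, Tra2b, Hnrnpd or Snrnp70, although each gene was in the catalogues.

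Other splicing regulators, 65 genes, had 47 members in 27 genes (54.7% of their single cassette exons), and 12 were in all 6 libraries. These included exons of 104 bases in Acin1, a component of the exon junction machinery, 152 bases in Celf1 and 91 bases in Elavl2, which encode RNA-binding regulators of splicing and messenger stability. Related genes held exons of equal length here too, and the next pairs were picked after their values were seen. Mbnl1 and Mbnl2 encode muscleblind splicing regulators, and in each a 95-base exon was listed in all 6 libraries under 1 pattern or another. The exons share 81 of 95 bases (85.3%), with the 14 differences in capitals.
Mbnl1 exon, chr3:60622146-60622240, plus strand: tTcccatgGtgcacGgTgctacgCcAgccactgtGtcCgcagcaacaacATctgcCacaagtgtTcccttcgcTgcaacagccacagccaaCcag
Mbnl2 exon, chr14:120404638-120404732, plus strand: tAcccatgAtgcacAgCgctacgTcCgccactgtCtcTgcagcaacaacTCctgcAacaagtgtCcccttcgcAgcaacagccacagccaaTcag
Rbfox1 and Rbfox2, regulators of neuronal splicing, each had a 40-base coding exon with 34 bases in common (85.0%). The Rbfox2 exon was in all 6 libraries and the Rbfox1 exon in 2, both of them morphine. Luc7l and Luc7l2, relatives of a yeast U1 snRNP protein, each had a 71-base exon in NMD transcripts alone, with 60 bases in common (84.5%), listed in 4 and 2 libraries.

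Among 21 NMD factors, 6 genes had 7 members against 2 frame-preserving regions. An exon of 181 bases with a start or stop codon and a 122-base UTR exon of Rnps1, a part of the exon junction complex, were in all 6 libraries. So was a 58-base exon of Smg1, the kinase that phosphorylates the central NMD helicase. A 107-base coding exon of Upf3a, a modulator of the pathway, was in morphine 5 alone, and its skipping leaves 78 of 422 codons. Its boundaries were part of other events in the saline libraries and in morphine 6.

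Chromatin regulators had 71 members in 44 of 128 listed genes, 47.7% of their single cassette exons, and 13 were in all 6 libraries. Skipping the 107-base exon of Kat7, a histone acetyltransferase gene, gives the stop shown above. A 115-base exon of the remodeller gene Chd5 leaves 1946 codons where the full form has 1952, since the new frame runs past the place of the annotated stop. A 239-base exon of Kmt5b, a histone H4 lysine methyltransferase gene, was also in all 6.

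Synaptic and cytoskeletal genes had the lowest frame-shifting shares of the 12 lists. Synaptic receptors and scaffolds held 38 members beside 142 frame-preserving regions (21.1%), in 26 of 109 listed genes. Cytoskeleton and transport genes held 43 beside 143 (23.1%), and ion channels 23 beside 45 (33.8%). In each list some members were still found in every library. Among them was an 89-base exon of Camk2d, the gene of a calcium and calmodulin dependent kinase, which held a start or stop codon. Dnm1, the gene of the endocytic GTPase dynamin 1, had a 37-base exon of the same kind, and Add1, which encodes adducin, had coding exons of 37 and 34 bases that share their right end. In Kcnj3, the gene of a G protein gated potassium channel subunit, skipping a 217-base exon ends the protein in the last exon. Cacnb4 and Clcn3 had exons of 160 and 176 bases with a start or stop codon.

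Gria2, which encodes a subunit of AMPA glutamate receptors, has the paired exons named flip and flop, of 115 bases each, and normally includes 1 of them. Their sequences share 79 of 115 bases (68.7%), and capitals mark the differences.
Gria2 exon, chr3:80691320-80691434, minus strand: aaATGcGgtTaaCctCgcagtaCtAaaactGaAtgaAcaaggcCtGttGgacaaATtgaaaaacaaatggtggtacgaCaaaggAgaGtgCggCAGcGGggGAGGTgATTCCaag
Gria2 exon, chr3:80690404-80690518, minus strand: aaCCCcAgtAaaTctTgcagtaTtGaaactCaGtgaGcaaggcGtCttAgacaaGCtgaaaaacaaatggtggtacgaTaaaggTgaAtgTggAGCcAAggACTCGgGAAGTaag
The exons were listed as 3 member regions, each in a single saline library, replicate 1 or 2. Both exons were listed with skipping to the same neighbours in saline 2, and in saline 1 the first was listed between its upstream neighbour and the second exon. Skipping either from its own transcript leaves 771 of 883 codons and a stop 224 bases before the last junction, with the same bases after the junction. The second exon was also listed under another pattern in morphine 4, and the boundaries of both exons were in other events in saline 3 and morphine 4.
Gria2, skipping either exon: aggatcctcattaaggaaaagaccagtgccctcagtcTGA
No member was found in Dlg4, Grin1, Homer1, Bdnf, Oprm1 or Drd2, all of which were in the catalogues. Grin1 had 3 frame-preserving regions, and Homer1 and Drd2 had 1 each.

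Opioid, dopamine and striatal genes had 20 members in 16 of 58 listed genes (40.8% of their single cassette exons), and 7 were in all 6 libraries. Oprl1 encodes the nociceptin receptor, a relative of the opioid receptors, and its 34-base exon printed above was in all 6. Read from the start codon of the 353-codon form that includes it, skipping gives a stop after 53 codons. This skipping is annotated, and the annotated form that skips the exon was not read. No loss of the receptor follows from this reading. A 139-base exon of Oprl1 in NMD transcripts, named after its values were seen, was in all 6 as well and leaves 95 of 367 codons when included. The transcription factor genes Creb1 and Meis2 had exons of 122 and 95 bases with a start or stop codon in all 6 libraries.

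Ubiquitin and autophagy genes had 38 members (41.3%), 13 of them in all 6 libraries, including exons of Atg10 (71 of 211 codons left), Nbr1 (906 of 988) and Mdm2. Kinases and phosphatases had 47 (39.8%), 8 of them in all 6, including exons of 68 bases in Map2k5 (120 of 448 codons left), 74 bases in Ttbk2 and 89 bases in Cdkl2. DNA repair genes had 23 (47.9%), and an exon of Rad52 (80 of 420 codons left) was in all 6 libraries. Clock genes had 5 members in 3 genes beside 3 frame-preserving regions (62.5%), none of them in all 6. Over all lists together 387 members stood beside 650 frame-preserving regions (37.3%). The lists were not tested against other genes.

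**Figure D3:**
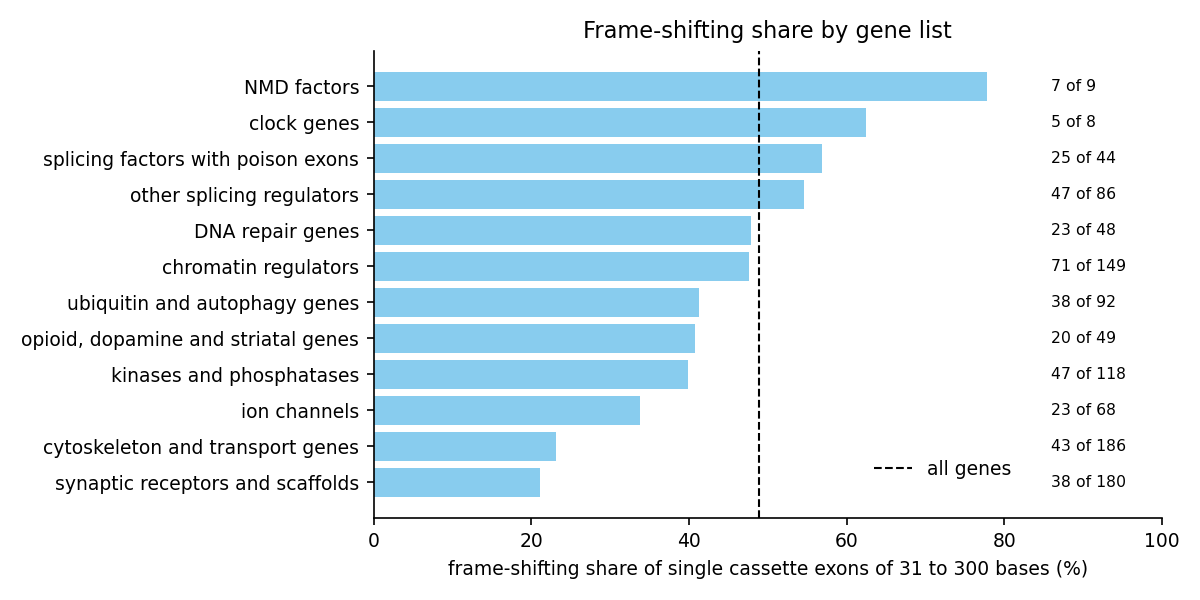
Percent of single cassette exons of 31 to 300 bases that are frame-shifting (horizontal axis) in each of 12 gene lists (vertical axis), with the numbers of frame-shifting and all such regions at the right. The dashed line marks all genes (48.8%), and the lists run from synaptic receptors and scaffolds (21.1%) to NMD factors (77.8%, 7 of 9 regions).

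The comparison of morphine with saline asks whether training with the drug went with other cassette exons. Neither the number of frame-shifting exons nor their share, class or reading-frame outcome separated the groups. The saline libraries listed 1631, 1724 and 1824 members and the morphine libraries 1659, 1654 and 1564. The groups overlapped, since morphine replicates 4 and 5 lay above saline replicate 1. The means were 1726 ± 96.5 and 1626 ± 53.5 (SD, n = 3 each), a difference of -101 regions (exact two-sided permutation test, p = 0.3; 0.489 after Benjamini-Hochberg adjustment over 11 comparisons between groups). With 3 libraries against 3 this test cannot go below 0.1. Saline replicate 3 had the most members and the most listed genes, and without it the difference was -51.8 regions (exact permutation p = 0.6). Without saline replicate 1, which had the fewest of its group, the groups did not overlap and the difference was -148 regions (exact permutation p = 0.1, the smallest that 5 libraries can give).

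As a share of the single cassette exons of the same library, members were 41.9, 42.9 and 42.7% in saline and 43.0, 41.8 and 41.2% in morphine. The highest and the lowest values were both in morphine. The means were 42.5 ± 0.538 and 42.0 ± 0.905% (SD, n = 3 each; exact permutation p = 0.6, adjusted 0.66). The share of members in coding sequence, given by library above, averaged 58.3 ± 1.59% for saline and 59.6 ± 0.570% for morphine (SD, n = 3 each; exact permutation p = 0.2, adjusted 0.489). It differed by 1.29 points, or 0.376 without saline replicate 3, which had the lowest share (exact permutation p = 0.4), and 1.85 without saline replicate 1 (exact permutation p = 0.1).

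No class of exon separated the groups. The saline libraries had 768, 808 and 824 coding members against 787, 803 and 725 for morphine (exact permutation p = 0.4, adjusted 0.489). Start and stop codon exons numbered 202, 210 and 207 against 202, 193 and 199 (exact permutation p = 0.2, adjusted 0.489). NMD transcript exons numbered 82, 77 and 85 against 72, 81 and 73 (exact permutation p = 0.2, adjusted 0.489). Coding members whose skipped form has a stop more than 50 bases before the last junction came to 447, 480 and 461 for saline and 484, 482 and 424 for morphine, with means of 463 ± 16.6 and 463 ± 34.1 (SD, n = 3 each; exact permutation p = 1, adjusted 1). The spread between libraries was far larger than the difference of 0.667 regions. Members whose inclusion brings such a stop numbered 93, 101 and 115 against 97, 99 and 88 (exact permutation p = 0.4, adjusted 0.489).

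**Figure D4:**
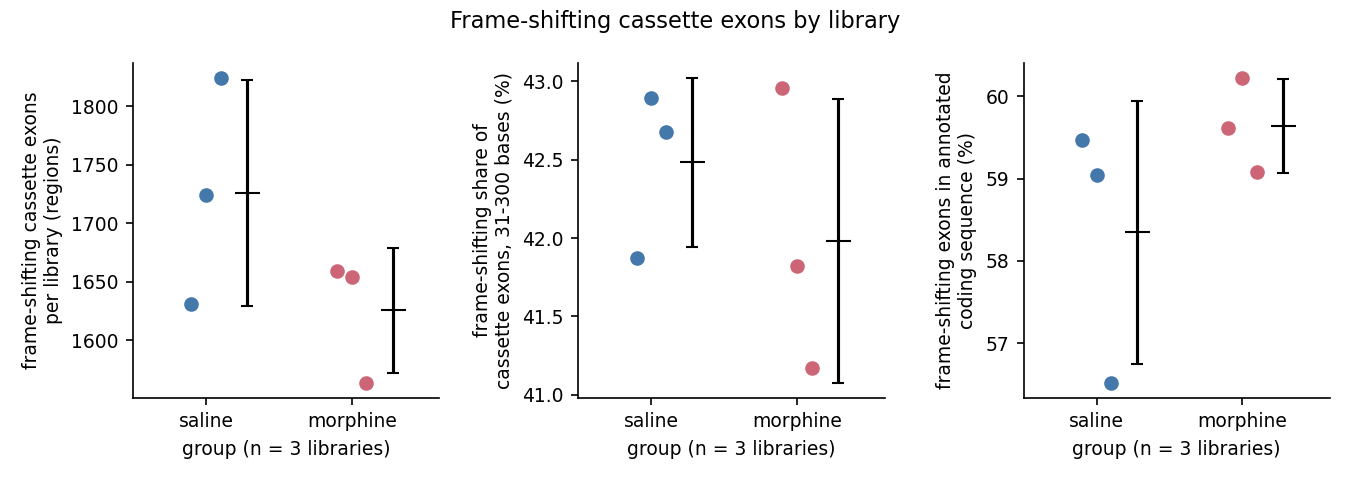
Members per library (left), members as a percent of single cassette exons of the same lengths (centre) and percent of members in coding sequence (right), for saline and morphine; points are libraries, and the bar beside them is the mean with its SD (n = 3), on axes that do not start at 0. In all 3 panels the points of the groups overlap.

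Members were shared within groups and between groups to an extent that overlapped. Of the members listed in either library of a pair, a mean of 42.6% were in both over the 6 pairs within groups (range 42.1 to 43.3%) and 42.8% over the 9 pairs between groups (41.5 to 44.8%). The same shares for frame-preserving exons were 60.2 and 59.7%.

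Few members were listed in all 3 libraries of a group and in none of the other. There were 25, or 0.658% of members, beside 74 (0.825%) of all 8967 single cassette regions and 34 (0.854%) of the frame-preserving ones. Saline alone had 16 (0.421%, beside 0.491% of all and 0.477% of frame-preserving regions) and morphine alone 9 (0.237%, beside 0.335 and 0.377%). Over the 128790 distinct events of all types in the catalogues the shares were 0.345% for saline and 0.321% for morphine. The members' shares lay near this background. Leaving out 1 library, so that fewer have to agree, gave 77 to 91 regions. The share over all single cassette regions was not computed for that setting, so these counts have no background beside them. Each region has an exact permutation p of 0.1 at best. In bulk tissue fewer cells of a type and less RNA per cell cannot be told apart, and here expression was not measured at all.

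All 25 genes were listed in every library of the group that lacked the region. For 9 of the 25 both splice boundaries of the exon were part of other events in at least 1 of those libraries, and for 2 the same exon was listed there under another pattern. In saline alone, 7 of 16 regions were coding and 5 were not annotated. In morphine alone, 6 of 9 were coding and 1 was not annotated.

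Among the saline regions, exons of Stard13, Trmt11, Zfat and Zyx give a stop more than 50 bases before the last junction when skipped. Stard13 encodes a GTPase activating protein, and skipping its 64-base exon leaves 155 of 1132 codons. Trmt11, the gene of the catalytic subunit of a tRNA guanosine methyltransferase, keeps 178 of 460 codons without a 157-base exon. Zfat, a zinc finger gene, keeps 752 of 1237 codons without a 233-base exon, and its boundaries were in other events in morphine 4 and 6. Zyx encodes the focal adhesion protein zyxin and keeps 87 of 533 codons without a 203-base exon, which was listed under another pattern in morphine 4 and 6 and had its boundaries in other events in all 3 morphine libraries. The Stard13 exon and the new ends of Trmt11 and Zfat, with the stop in capitals, are shown as examples of what the saline catalogues listed.
Stard13 exon, chr5:151073301-151073364, minus strand: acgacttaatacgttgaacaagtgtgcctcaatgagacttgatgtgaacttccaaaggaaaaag
Trmt11, skipping chr10:30587439-30587595, minus strand: tattttggcagatgggtggcctccttaTAG
Zfat, skipping chr15:68178711-68178943, minus strand: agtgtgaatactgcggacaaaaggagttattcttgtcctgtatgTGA

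The other saline regions ended differently. Skipping the 298-base exon of Trim46, whose product organises axonal microtubules, stops in the last exon after 554 of 759 codons, and the boundaries of this exon were in other events in all 3 morphine libraries. Without a 131-base exon of the diacylglycerol kinase gene Dgkd the frame runs for 1191 codons, past the place of the annotated stop, where the full form has 1220. The 125-base exon of the demethylase-related gene Jmjd1c, whose boundaries were in other events in all 3 morphine libraries, and the 128-base start or stop codon exon of the transcriptional coactivator gene Eya1 could not be translated in this way. Rbfox3, the gene of the neuronal marker NeuN, had a 40-base UTR exon, and Uty, a Y-linked histone demethylase relative, a 56-base NMD exon. The regions of Zfp780b, Alyref, Dram1, Sgcd, Zdbf2 and Zfp626, named here to complete the 16 after their values were seen, lay in a UTR in the first and were unannotated in the other 5.

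Among the morphine regions, a 164-base exon of Cox18, which helps to insert a subunit of cytochrome c oxidase into its membrane, was the coding member with a stop more than 50 bases before the last junction, 178 bases, after 159 of 332 codons. Its boundaries were in other events in saline 1 and 2. Hdac11 encodes a histone deacetylase, and skipping its 43-base exon leaves 264 of 347 codons and a stop in the last exon. Skipping a 218-base exon of Mcat, a gene of mitochondrial fatty acid synthesis, leaves 178 of 381 codons and also ends in the last exon. The Mbnl1 region leaves 347 of 387 codons and a stop 43 bases before the last junction.
Hdac11 exon, chr6:91166243-91166285, plus strand: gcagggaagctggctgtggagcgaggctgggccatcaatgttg
Mbnl1, skipping the exon printed above: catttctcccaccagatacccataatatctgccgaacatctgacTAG
Cox18, skipping chr5:90219360-90219523, minus strand: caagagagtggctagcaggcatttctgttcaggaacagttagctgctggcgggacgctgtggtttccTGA

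For Mbnl1 the difference lay in the neighbouring splice site and not in the exon. The morphine region joins the exon to a splice site at position 60615773 of chromosome 3, and a second member with the same exon joins it to position 60621458. That second region was listed in the 3 saline libraries and in morphine 4 and 6. Skipping leaves 341 of 381 codons in that form.

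The other morphine regions were a 122-base coding exon of Igsf9b, an adhesion gene of inhibitory synapses, and a 175-base coding exon of the tRNA phosphotransferase gene Trpt1, whose boundaries were in other events in all 3 saline libraries. A 119-base exon of Snapc4, a gene of small nuclear RNA transcription, lay in a non-coding transcript and carries its own stop after 74 codons of 1333; its boundaries were in other events in saline 1. Zfp236 had an 82-base NMD exon, and a 151-base exon of the kinase gene Prkx was not annotated.

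By gene list, only other splicing regulators (Rbfox3 in saline, Mbnl1 in morphine) and chromatin regulators (Hdac11 in morphine) held any of these 25 regions. Over all lists this was 1 saline and 2 morphine regions among 387 members, beside 16 (0.421%) and 9 (0.237%) among all 3799. Such small counts do not set these lists apart. Poison-exon splicing factors had 11, 15 and 16 members in saline and 11, 14 and 13 in morphine. Opioid, dopamine and striatal genes had 9, 10 and 13 against 12, 11 and 10, and synaptic receptors and scaffolds 18, 24 and 20 against 19, 20 and 17. In each of these lists the groups overlapped.

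Most regions that a library did not list lay in genes for which that library listed some event. Such an event does not show that the gene was covered well enough to record the exon, and why regions were unlisted was not tested. Over all 12738 pairs of a member and a library that did not list it, the gene was not listed in 95 (0.746%). The same exon stood under another pattern in 1263 (9.92%), both boundaries were in other events in 1293 (10.2%), and none of these held in 10087 (79.2%). Across the series, the libraries listed 54641 to 58007 events of all types in 14121 to 14791 genes. All 11 marker genes of medium spiny neurons, the main cell type of this region, were listed in all 6 libraries, as were those of cortical neurons, interneurons, oligodendrocytes, astrocytes and microglia. Of 3 endothelial markers, 2 were listed in all 6 libraries and Cldn5 in none. Of 4 markers of ependyma and choroid plexus, 3 were listed in all 6, and Tmem72 in only some. A listing shows only that a gene had an event, so cell shares were not estimated.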

How the data were processed

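RNA of the 6 libraries was sequenced on an Illumina platform, per the labels' protocols. Each deposited file is a catalogue of events in assembled transcripts, with a type code, gene ID, start, end and splice positions. The column headed FPKM in the deposited files holds whole numbers from -24 to 0, so it was not used. Which assembler, event caller and genome build were used, and the read depth, was not given in the sources used here. Gene symbols, exon classes and coding frames came from GENCODE M21 (GRCm38), where 83.9% of member exons are annotated; 2706 gene IDs had a symbol and 10 had none.

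Regions were rebuilt from the single-inclusion rows and compared with exact two-sided permutation tests in Python 3.11.15 with numpy 2.4.6, which were tested on simulated data. A class takes a region's annotated exon of the same start and end. Named genes were at most 10 regions per group listed in that group alone (annotated and coding first), at most 3 regions per list found in all 6 libraries (coding first), and 22 genes named whatever their values. Sequences were those of named coding exons, and those of Rbm39 and Mbnl2 were added after their values were seen. The members and gene lists were chosen with earlier results of these data known. Alternatives changed the unit of a region, event codes, length limits, annotation, scaling and the libraries used. Some named genes are not reported here.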

Additional observations from a re-analysis of the deposited data

How the results depend on the processing

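No paired analysis was possible because the saline libraries carry replicate numbers 1 to 3 and the morphine libraries 4 to 6, with none in common. The morphine minus saline difference in members kept its direction under distinct exons, added inexact events, other length limits, annotated exons, genes and scaling, and its exact permutation p was 0.2 or more. Leaving out each library gave -148 to -51.8 regions, with an exact permutation p of 0.1 without saline replicate 1. The difference in frame-shifting share ran from -0.988 to -0.0936 points without each library, and that in coding share from 0.376 to 1.85 points. Regions listed in 1 group alone numbered 19 to 34 under the other settings and 77 to 91 when each library was left out, where fewer libraries have to agree. Shares over all single cassette regions were not computed under these settings, so the counts have no background. The coding share of members minus that of frame-preserving exons was -23.0 to -22.4 points without each library, and 5 libraries cannot give an exact sign-flip p below 0.0625. In an alternative added after seeing the data, the share in all 6 libraries differed by -23.9 points among wholly coding exons, against -16.2 over all regions. Unknown depth limits what an unlisted event shows.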
